A study of Mus musculus with 18 samples.

Results

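The genes described here encode the subunits of the mitochondrial respiratory chain, the ATP synthase and cytochrome c. They are the probe sets of the array whose mouse gene symbol begins with Nduf and a subunit letter and number, is Sdha to Sdhd, begins with Uqcr, Cox4 to Cox8 or Atp5, or is Cyc1, Cycs or Cyct. This gave 75 genes among 16539 probe sets, 15780 of which carry 1 gene symbol. Complex I has 34 of them, complex II 4, complex III 7, complex IV 16 and the ATP synthase, also called complex V, 12, and 2 encode cytochrome c. Complexes were assigned by symbol, so Ndufa4 and Ndufa4l2 count under complex I throughout.

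The study asked what follows in male meiosis from more unpaired autosomal chromatin, and RNA was measured on 18 mouse arrays in 7 groups. Flow cytometry gave pre-mid-pachytene spermatocytes of 2-month-old males that were C57BL/10J-t12+/+T43 (n = 3), C57BL/10J-Ttf+/+T43H (n = 3) or C57BL/10J (n = 2, the controls). Mid-late-pachytene spermatocytes came from C57BL/10J males only (n = 2). Whole testes without the tunica came from males aged 15 days, either t12+/+T43 (n = 3), Ttf+/+T43H (n = 3) or C57BL/6J (n = 2), so the control strain of the testes differs from that of the sorted cells. Both carriers hold T43 (T43H), a translocation between chromosomes 16 and 17, opposite a chromosome 17 named t12 or Ttf, and as background t haplotypes of this chromosome carry inversions. The design text calls the replicates biological, and p-values measure the spread between these samples.

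As background, complexes I to IV pass electrons from NADH and succinate to oxygen, with cytochrome c as the mobile carrier between complexes III and IV, and the ATP synthase uses the resulting proton gradient. Male germ cells replace several of the body's subunits with their own. Cyct encodes testis cytochrome c in place of Cycs, and Cox6b2, Cox7b2 and Cox8c encode testis forms of complex IV subunits whose widely expressed partners include Cox6b1 and Cox8a. Genes of the X chromosome are silenced in male cells during pachytene.

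The promoter letters of 3 testis isoforms and 2 widely expressed partners are shown because the results turn on these genes. They are the 200 bases before the gene start, from RefSeq, GRCm38.p6, written 5′ to 3′ on the gene's strand. Capitals mark matches, on either strand, to 4 searched motifs: the NRF-1 core TGCGCA, the CRE core TGACGT, the CCAAT box CCAAT and the MYB core AACTG.

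Cyct (chr2:76360454-76360653, minus strand): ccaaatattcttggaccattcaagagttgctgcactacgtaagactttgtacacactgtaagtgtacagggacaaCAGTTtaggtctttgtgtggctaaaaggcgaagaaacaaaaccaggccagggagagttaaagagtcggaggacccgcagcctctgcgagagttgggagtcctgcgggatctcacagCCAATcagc
Cox6b2 (chr7:4753095-4753294, minus strand): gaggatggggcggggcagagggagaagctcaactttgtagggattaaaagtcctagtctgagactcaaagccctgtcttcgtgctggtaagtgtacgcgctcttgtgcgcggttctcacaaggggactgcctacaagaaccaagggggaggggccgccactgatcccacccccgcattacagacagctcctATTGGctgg
Cox7b2 (chr5:71548206-71548405, minus strand): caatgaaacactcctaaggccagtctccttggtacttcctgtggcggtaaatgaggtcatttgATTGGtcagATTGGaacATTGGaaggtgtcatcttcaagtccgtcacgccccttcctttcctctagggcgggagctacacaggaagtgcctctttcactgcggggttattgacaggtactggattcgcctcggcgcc
Cox6b1 (chr7:30626115-30626314, minus strand): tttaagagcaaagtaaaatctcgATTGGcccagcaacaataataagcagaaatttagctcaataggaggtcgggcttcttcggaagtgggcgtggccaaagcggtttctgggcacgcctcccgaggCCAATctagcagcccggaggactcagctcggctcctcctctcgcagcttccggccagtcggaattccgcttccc
Cox8a (chr19:7217617-7217816, minus strand): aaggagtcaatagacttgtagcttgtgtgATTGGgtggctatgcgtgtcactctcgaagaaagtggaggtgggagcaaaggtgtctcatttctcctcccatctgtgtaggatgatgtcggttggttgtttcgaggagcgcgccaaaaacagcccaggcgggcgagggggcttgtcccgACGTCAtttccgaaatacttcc

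All 5 windows held a CCAAT box, 3 times in Cox7b2, 2 times in Cox6b1 and 1 time in each of the others. The window of Cyct also held 1 MYB core, and that of Cox8a 1 CRE core. The NRF-1 core, bound by a regulator of respiratory chain genes, was in none of the 5. Over 32851 windows of the same length, 29.35% held a CCAAT box, 32.12% a MYB core, 5.854% a CRE core and 5.72% an NRF-1 core. Among the 60 members with a window, 23 held a CCAAT box (38.33%), 17 a MYB core (28.33%), 6 a CRE core and 10 an NRF-1 core (16.67%). A match describes these letters only.

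Values are the authors' log2 GCRMA values, a scale that corrects background and normalizes arrays, and changes are log2 differences. A gene was tested with limma where at least 2 arrays of a fit reached a log2 value of 4, and called at an adjusted p under 0.05 (Benjamini-Hochberg over all genes of the comparison). Of the 75 members, 69 were tested in the sorted cells and 69 in the testes. Below the filter in both were Atp5g1, Cox4i2, Cox6a2, Cox8b and Cycs, joined by Cox8a in the sorted cells and Ndufa4l2 in the testes. Every pachytene marker on the array (9 of 9) reached a log2 value of 4 in the sorted C57BL/10J and Ttf cells, and 8 or 9 did in t12 cells. Spermatid markers averaged 5.61 to 7.65 in t12, 9.69 to 10.08 in Ttf and 11.27 to 11.83 in control cells of the pre-mid stage, and Leydig cell markers 8.03 to 10.61, 6.93 to 8.31 and 3.998 to 5.796 in the same order of groups. The 3′ signal of the Gapdh control exceeded its 5′ signal by 2.51 to 3.98 log2 units on the sorted arrays and differed from it by -0.12 to 0.14 on the testis arrays. Earlier results of these data set Ttf replicate 2 and t12 replicate 3 of the sorted cells apart from their groups. For the members, t12 replicate 2 of the sorted cells was the lowest of its group for 65 of 69 genes and the lowest of all 10 sorted arrays for 35, with a member median of 11.65, against 12.37 and 12.64 in the other t12 arrays.

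In 15-day testes, the testis isoforms had the 4 largest changes between t12 and Ttf carriers. Cyct, Cox6b2, Cox7b2 and Cox8c were all lower in t12 testes, while Cox6b1 and Cox8a differed by 0.10 ± 0.07 and 0.09 ± 0.09 (log2, SE) and were not called. In t12 testes 6 of 69 members fell relative to Ttf testes (8.70%, against 3.92% of all genes tested) and 0 rose (against 1.07%). The member median change was -0.08, against 0.02 for all genes.

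Cox8c, a testis form of subunit 8 of cytochrome c oxidase, had log2 values of 9.29, 8.97 and 8.28 in t12 testes, against 10.68, 10.57 and 9.98 in Ttf testes and 10.44 and 10.14 in C57BL/6J testes. All t12 values lay below all values of the other groups, and the Ttf and C57BL/6J ranges overlapped. The t12 minus Ttf change was -1.56 ± 0.29 (2.96-fold lower, limma adjusted p = 0.0386), and the t12 minus C57BL/6J change -1.45 ± 0.32 (adjusted p = 0.0199).

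Cyct had 11.34, 11.19 and 10.87 in t12 testes, against 12.22, 12.01 and 11.91 in Ttf testes and 12.13 and 11.96 in C57BL/6J testes. Again each t12 value was below every other. The t12 minus Ttf change was -0.91 ± 0.13 (1.88-fold lower, limma adjusted p = 0.0299), and the t12 minus C57BL/6J change was the same to 2 decimals (adjusted p = 0.00705). Ttf testes were at 12.05 ± 0.15 and C57BL/6J testes at 12.05 ± 0.12 (SD).

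Cox6b2, the testis form of subunit 6B, had 10.93, 10.73 and 10.50 in t12 testes, against 11.71, 11.70 and 11.35 in Ttf testes and 12.34 and 12.15 in C57BL/6J testes. The 3 groups stood in separate ranges, t12 lowest and C57BL/6J highest. The t12 minus Ttf change was -0.87 ± 0.14 (limma adjusted p = 0.0351), the t12 minus C57BL/6J change -1.53 ± 0.15 (2.88-fold lower, adjusted p = 0.00125) and the Ttf minus C57BL/6J change -0.66 ± 0.15 (adjusted p = 0.0454). The Ttf call was lost whenever 1 of the 5 arrays compared was left out (kept in 0 of 5 fits), and the t12 minus C57BL/6J call was kept in 5 of 5.

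Cox7b2, the testis form of subunit 7B, had 11.66, 11.52 and 11.30 in t12 testes, against 12.28, 12.25 and 11.91 in Ttf testes and 12.20 and 12.09 in C57BL/6J testes. The t12 values were below the others, and those of Ttf and C57BL/6J overlapped. It fell by 0.65 ± 0.13 in t12 relative to Ttf testes and by 0.65 ± 0.14 relative to C57BL/6J testes (limma adjusted p = 0.0398 and 0.0181). Against C57BL/6J the t12 calls of Cox7b2 and Cox8c were each kept in 3 of 5 fits with 1 array left out, and that of Cyct in 4.

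The other calls between the carriers were small. Ndufa5, an accessory subunit of complex I, fell by 0.25 ± 0.05 and Uqcrc1, a core protein of complex III, by 0.23 ± 0.04 in t12 relative to Ttf testes (limma adjusted p = 0.0386 and 0.0398). Cox7a1, the muscle form of subunit 7A, had 9.66, 9.66 and 9.56 in t12, against 9.19, 9.31 and 9.40 in Ttf and 9.43 and 9.25 in C57BL/6J testes. It was 0.33 ± 0.07 above Ttf (adjusted p = 0.0523), and was called under quantile normalization (0.36, adjusted p = 0.0463) and with arrays centred on their median (0.35, adjusted p = 0.0465), which leaves 1 higher and 6 lower under each.

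The 6 calls between the carriers depended on single libraries. The count was 0 without Ttf testis replicate 1, Ttf replicate 2, t12 replicate 2 or t12 replicate 3, where 17, 11, 12 and 20 members had an unadjusted p under 0.05, and it was 5 without t12 replicate 1 and 7 without Ttf replicate 3. Over these fits the Cyct change stayed between -1.02 and -0.78. Pachytene spermatocyte markers averaged 9.31 to 9.61 in t12, 9.76 to 10.11 in Ttf and 10.05 to 10.20 in C57BL/6J testes, with 6, 6 and 7 of 9 markers at a log2 value of 4 or more, and 1 of 10 spermatid markers reached it in each group. Leydig cell markers averaged 4.99 to 7.60 in t12, 4.41 to 7.56 in Ttf and 7.43 to 8.21 in C57BL/6J testes. The pachytene markers did not move alike. Ldhc had 11.63 to 12.54 in t12 and 13.15 to 13.71 in Ttf testes, and Piwil1 10.17 to 11.24 and 11.54 to 12.40. Sycp3 had 14.83 to 15.01 and 14.90 to 15.00. Ldhc is also among the energy genes reported below. The part of the markers in these results was not tested. In a whole testis, fewer cells of a type and less RNA per cell cannot be told apart.

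**Figure D1:**
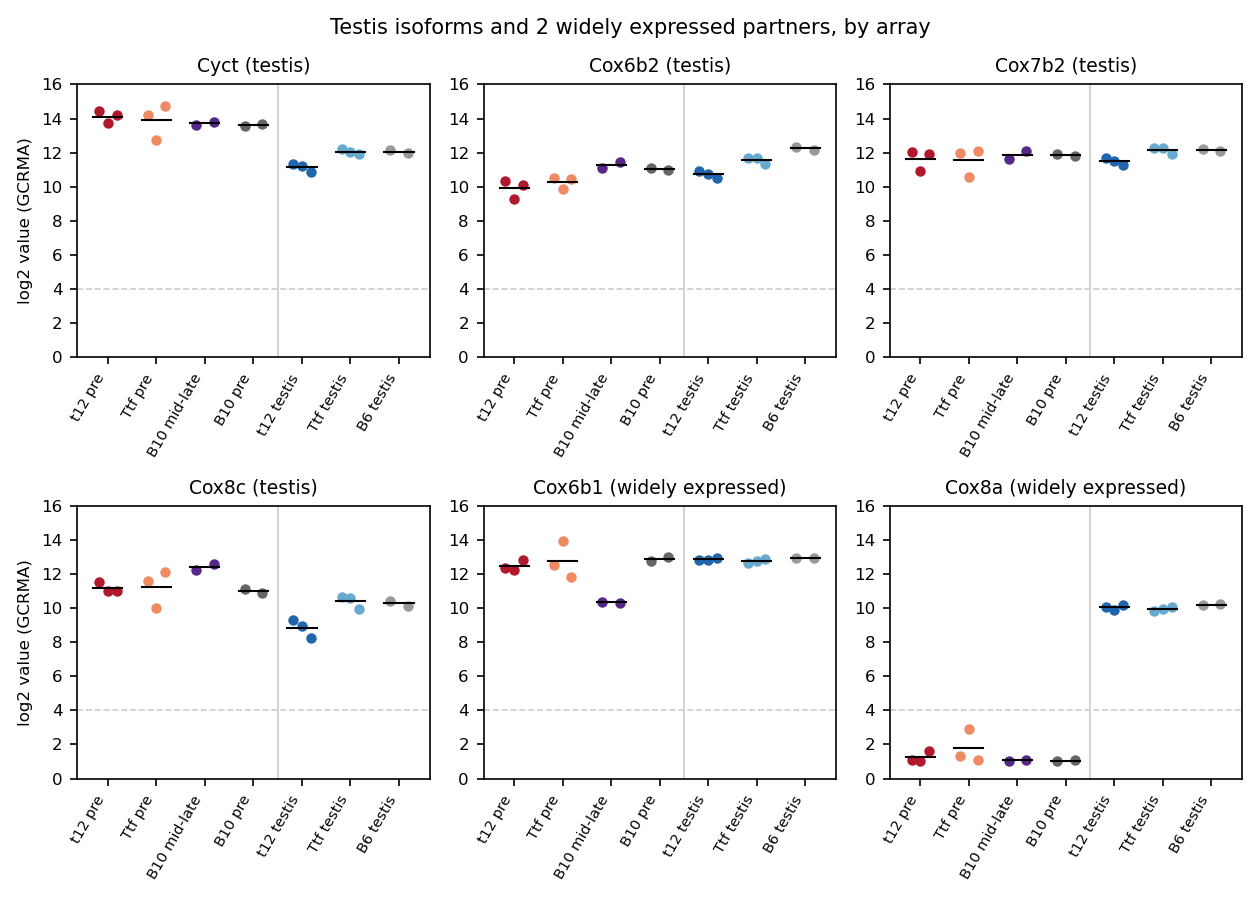
Log2 values of 4 testis isoforms and 2 widely expressed partners on each array. Each point is an array, each black line a group mean, the dashed line the filter at 4, and the grey vertical line separates sorted cells (left) from 15-day testes; B10 stands for C57BL/10J, B6 for C57BL/6J and pre for the pre-mid stage. In testes the t12 points of Cyct, Cox6b2, Cox7b2 and Cox8c lie below the Ttf points, and Cox8a is below the filter on every sorted array.

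Against C57BL/6J testes, many more members were lower in t12 carriers. The carriers of the sorted cells are named as C57BL/10J stock, while these controls are C57BL/6J. Carrier status and strain thus cannot be told apart in any comparison of carrier testes with C57BL/6J. In t12 testes 27 of 69 members fell (39.1%, against 11.3% of all genes tested) and 1 rose (1.45%, against 10.5%), with a member median change of -0.17 against 0.02 for all genes. By complex, 12 of 33 tested members of complex I fell, 0 of 4 of complex II, 3 of 7 of complex III, 6 of 13 of complex IV and 5 of 11 of the ATP synthase, besides Cyct. The 8 largest falls were Cox6b2, Cox8c, Cyct, Cox7b2, Ndufb10, Ndufa7, Atp5o and Ndufa5, the last 2 at -0.39 ± 0.06 and -0.38 ± 0.05 (limma adjusted p = 0.00595 and 0.0033). The remaining 19 fell by 0.18 to 0.36. Of the partners of tissue isoforms, Cox4i1 and Cox7a2 fell, by 0.20 ± 0.04 and 0.22 ± 0.06 (adjusted p = 0.0189 and 0.0355). After quantile normalization Cox4i1 was at -0.07 (adjusted p = 0.254) and Cox7a2 at -0.13, neither called, and Cox7a2 was not called after centring either, at -0.19. Cox6b1, Cox6a1, Cox8a and Ndufa4 were not called, at -0.08, -0.11, -0.17 and -0.08. The extremes of complex II were Sdha at -0.20 and Sdhb at -0.07, neither called. The rise was that of Cox7a1, at 0.28 ± 0.08 (adjusted p = 0.0483), a call kept in 3 of 11 alternative fits and in 0 of the 5 that leave out 1 array.

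In Ttf testes 6 of 69 members fell relative to C57BL/6J (8.70%, against 4.7% of all genes tested) and 0 rose (against 3.86%), with a median of -0.07 against 0.00. Besides Cox6b2 these were Ndufb10, Ndufa7, Cox5b at -0.27 ± 0.06, Uqcrh at -0.25 ± 0.05 and Ndufb2 at -0.24 ± 0.05 (limma adjusted p = 0.0389, 0.0312 and 0.0399). Cox5b is a nuclear-encoded subunit of complex IV, Uqcrh the hinge protein of complex III and Ndufb2 an accessory subunit of complex I. The comparisons of t12 and Ttf testes with C57BL/6J share the same 2 control arrays, and C57BL/6J replicate 1 was the highest of the 8 testis arrays for 34 of 69 members. Without that array 4 members fell in t12 and 2 in Ttf testes, and without C57BL/6J replicate 2, 10 and 2. The t12 count was 12 without t12 replicate 2, the lowest testis array for 37 of 69 members, and 18 without t12 replicate 1. The Ttf count was 2 without Ttf replicate 1 or without Ttf replicate 2.

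**Figure D2:**
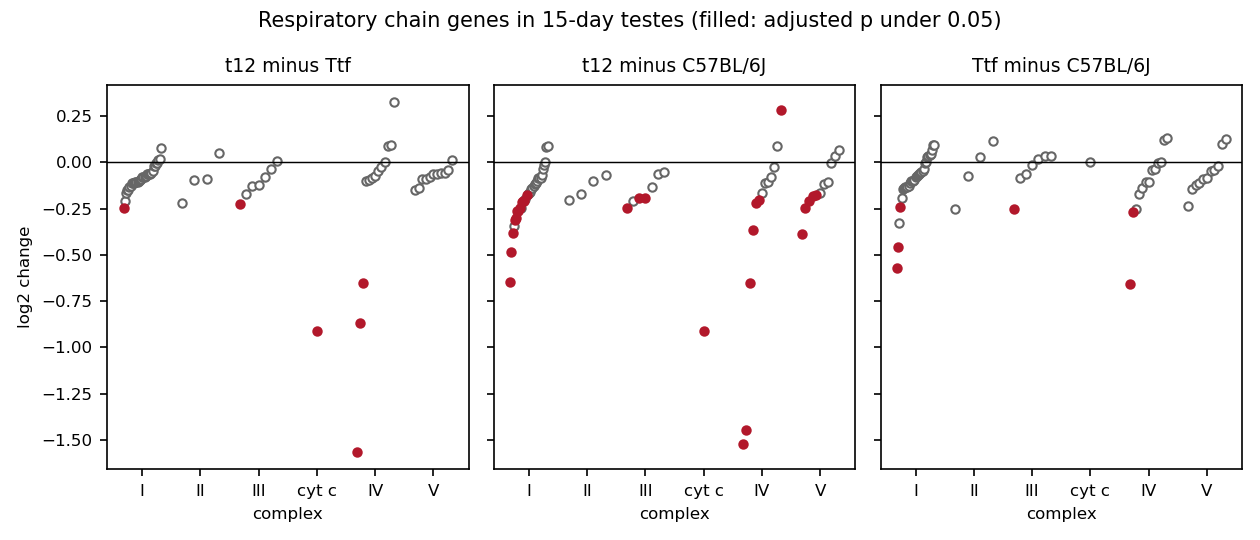
Log2 changes of the tested members in 15-day testes, arranged by complex, for t12 minus Ttf, t12 minus C57BL/6J and Ttf minus C57BL/6J. Each point is a gene, filled where the limma adjusted p is under 0.05. The lowest points of the first 2 panels are the testis isoforms, down to -1.56 and -1.53.

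Members on chromosomes 16 and 17, those of the translocation, were 2 (Atp5j, Atp5o) and 6 (Ndufb10, Ndufv3, Ndufa7, Ndufa11, Ndufv2, Cox7a2l). Ndufb10 and Ndufa7 were lower in both carriers' testes. Ndufb10, an accessory subunit of complex I, had 11.56, 11.57 and 11.58 in t12 and 11.65, 11.65 and 11.63 in Ttf testes, against 12.23 and 12.21 in C57BL/6J. All 6 carrier values lay below both controls, by far more than the spread within groups, whose SD was 0.01, 0.01 and 0.02 in t12, Ttf and C57BL/6J testes. The change was -0.65 ± 0.04 in t12 and -0.57 ± 0.04 in Ttf testes (limma adjusted p = 0.000187 and 0.000428).

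Ndufa7, another accessory subunit of complex I, had 11.68, 11.63 and 11.65 in t12 and 11.64, 11.68 and 11.70 in Ttf testes, against 12.16 and 12.12 in C57BL/6J. The carriers overlapped each other and lay apart from the controls. The change was -0.48 ± 0.05 in t12 and -0.46 ± 0.05 in Ttf testes (limma adjusted p = 0.000969 and 0.00223). Each of these calls held in all 11 alternative fits of its comparison, leaving out each array included. Without 1 of the C57BL/6J arrays the control is a single array, which is then assumed to vary like the other groups.

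In the sorted cells neither gene was called against C57BL/10J. Ndufb10 averaged 10.82 in t12, 11.44 in Ttf and 11.61 in control cells, and Ndufa7 averaged 7.52, 8.36 and 8.17 in the same groups. Atp5o, a peripheral stalk subunit of the ATP synthase, had 11.41, 11.57 and 11.52 in t12 testes, against 11.93 and 11.84 in C57BL/6J, and fell there as given above. Atp5j, also of the stalk, fell by 0.18 ± 0.05 in t12 testes (limma adjusted p = 0.0356), and was not called after centring or quantile normalization. In the sorted cells Ndufv3, an accessory subunit of complex I, had 9.20, 8.70 and 9.59 in t12, against 10.44 and 10.31 in C57BL/10J cells. These ranges did not overlap, and the change was -1.21 ± 0.41 (adjusted p = 0.112).

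**Figure D3:**
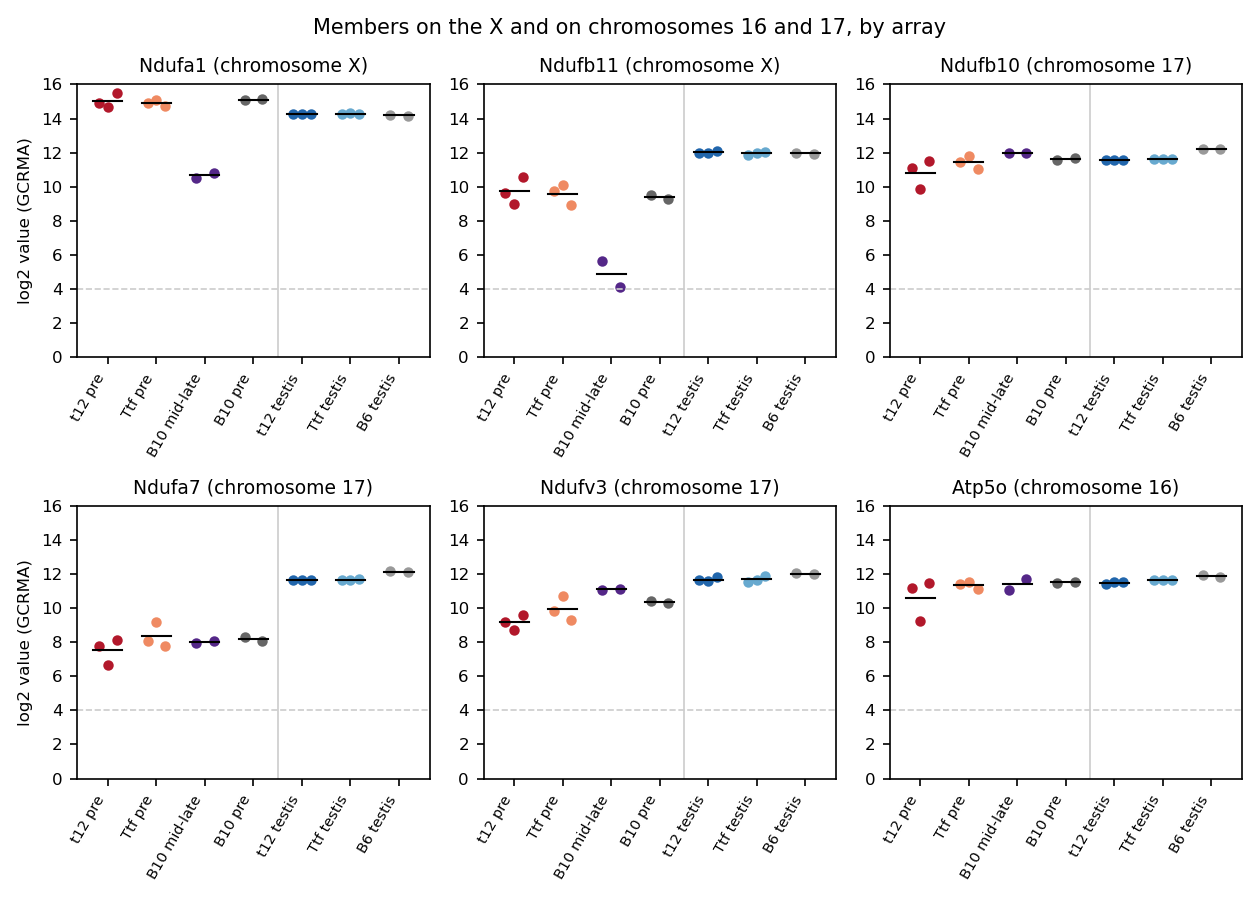
Log2 values of 6 members on the X and on chromosomes 16 and 17 on each array, with group means as black lines and the filter at 4 dashed (B10, C57BL/10J; B6, C57BL/6J). Ndufa1 and Ndufb11 are lowest in mid-late-pachytene cells, and Ndufb10 and Ndufa7 are lower in both carriers' testes than in C57BL/6J testes.

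Between normal mid-late and pre-mid-pachytene cells, a part of the respiratory chain genes changed strongly. None of the 4 testis isoforms was called in the fit of all sorted arrays. In mid-late cells 16 of 69 members fell (23.2%, against 30.3% of all genes tested) and 2 rose (2.90%, against 26.2%). The share that fell is thus no larger than among all genes. The member median change was -0.25, against -0.11. By complex 8 of 34 fell in complex I, 0 of 4 in II, 1 of 7 in III, 3 of 12 in IV and 4 of 11 in the ATP synthase. Both rises, Ndufb2 and Ndufa4l2, count under complex I by symbol.

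Ndufa4, a subunit named for complex I and since assigned to complex IV, had 5.80 and 5.68 in mid-late cells, against 10.66 and 10.77 in pre-mid cells. Its relative Ndufa4l2 had 7.95 and 6.77 in mid-late cells, against 2.25 and 2.27 in pre-mid cells, and stayed at 2.25 to 2.27 in all carrier cells and at 1.55 to 1.57 in testes. The mid-late arrays were the only ones of the 18 where Ndufa4l2 reached a log2 value of 4. Ndufa4 fell by 4.97 ± 0.53 (limma adjusted p = 6.85e-05). Ndufa4l2, counted above among the rises, passed the filter only through the mid-late arrays where it is high, so no size or p is given for it.

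Both members on the X were among the 3 largest falls. Ndufa1, an essential accessory subunit of complex I, had 10.52 and 10.80 in mid-late cells, against 15.06 and 15.16 in pre-mid cells. Ndufb11, another, had 5.65 and 4.10, against 9.53 and 9.26. The groups lay far apart for both, and the changes were -4.45 ± 0.29 and -4.52 ± 0.64 (limma adjusted p = 4.69e-06 and 0.000359). The carriers' pre-mid cells did not differ detectably from C57BL/10J cells in either gene, with Ndufa1 at 15.02 in t12, 14.91 in Ttf and 15.11 in C57BL/10J cells and Ndufb11 at 9.73, 9.60 and 9.40 (adjusted p from 0.776 to 0.928).

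Other large falls were those of Atp5mpl, a small proteolipid of the ATP synthase, at -3.31 ± 0.53, Cyc1, the cytochrome c1 of complex III, at -2.57 ± 0.30, and Cox6b1 at -2.55 ± 0.58 (limma adjusted p = 0.000725, 0.000115 and 0.00502). Cox6b1 had 10.38 and 10.32 in mid-late cells, against 12.76 and 13.03 in pre-mid cells. Its testis form Cox6b2 had 11.12 and 11.44, against 11.07 and 11.002, a change of 0.24 ± 0.38 that was not called. The difference between these changes was not tested. Atp5g3, a form of the ATP synthase c subunit, and Atp5pb, of its peripheral stalk, both fell by 1.86 (SE 0.24 and 0.40, adjusted p = 0.000216 and 0.0039).

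Cyct had 13.64 and 13.81 in mid-late cells, against 13.55 and 13.66 in pre-mid cells, and Cox7b2 had 11.62 and 12.09, against 11.94 and 11.79. Both pairs lay close together or overlapped, with changes of 0.11 ± 0.57 and -0.01 ± 0.56. The SE of these changes pools the spread of all sorted arrays, which was wider in the carriers. The SD of Cyct was 0.12 in mid-late, 0.08 in pre-mid and 1.05 in Ttf cells, and that of Cox8c 0.26, 0.16 and 1.09. With the compared groups only, more members were called, as given below. Cox8c had 12.26 and 12.62 in mid-late cells, against 11.14 and 10.90 in pre-mid cells, without overlap. Its change of 1.42 ± 0.59 had a limma adjusted p of 0.0685. Ndufb2 had 10.83 and 11.04, against 9.96 and 9.88, and rose by 1.02 ± 0.34 (adjusted p = 0.032), a call kept in 5 of 10 alternative fits. Of the other partners, Cox6a1, Cox7a2 and Cox4i1 had changes of -0.70, -0.24 and -0.08, none called, and the extremes of complex II were Sdhc at -1.13 and Sdha at -0.23, neither called.

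The small changes of this comparison depend on scaling. Centring arrays on their median moved the median of all genes to 0.18 and the member median to 0.03, with 11 lower and 6 higher members. Under it the calls of Atp5a1, Cox5b, Cox6c, Ndufb6 and Ndufb7 were lost and Cox8c (1.70, adjusted p = 0.034), Ndufa12, Ndufb5 and Ndufb8 were called higher. The falls of Ndufa4, Ndufa1, Ndufb11, Atp5mpl, Cyc1, Cox6b1, Atp5g3, Atp5pb, Ndufa10 and Ndufs7 were called in all 10 alternative fits. Without mid-late replicate 1, 10 members were called, without mid-late replicate 2 or pre-mid replicate 2, 11 each. Spermatid markers averaged 8.67 to 9.29 in mid-late and 11.27 to 11.83 in pre-mid cells. Spermatogonium markers averaged 4.09 to 4.21 and 6.67 to 6.97, and Sertoli markers 3.05 to 3.15 and 4.26 to 4.34. Pachytene markers averaged 12.88 to 12.95 and 12.83 to 12.89, but single markers moved in opposite directions. Ccna1 had 12.68 and 12.74 in mid-late cells, against 7.04 and 6.71 in pre-mid cells. Sycp1 had 10.37 and 10.04, against 13.70 and 13.67. The 3′ minus 5′ signal of the actin control was 3.38 and 3.51 in mid-late, against 2.49 and 2.51 in pre-mid cells. That of Gapdh overlapped. The part of these differences in the result was not tested.

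**Figure D4:**
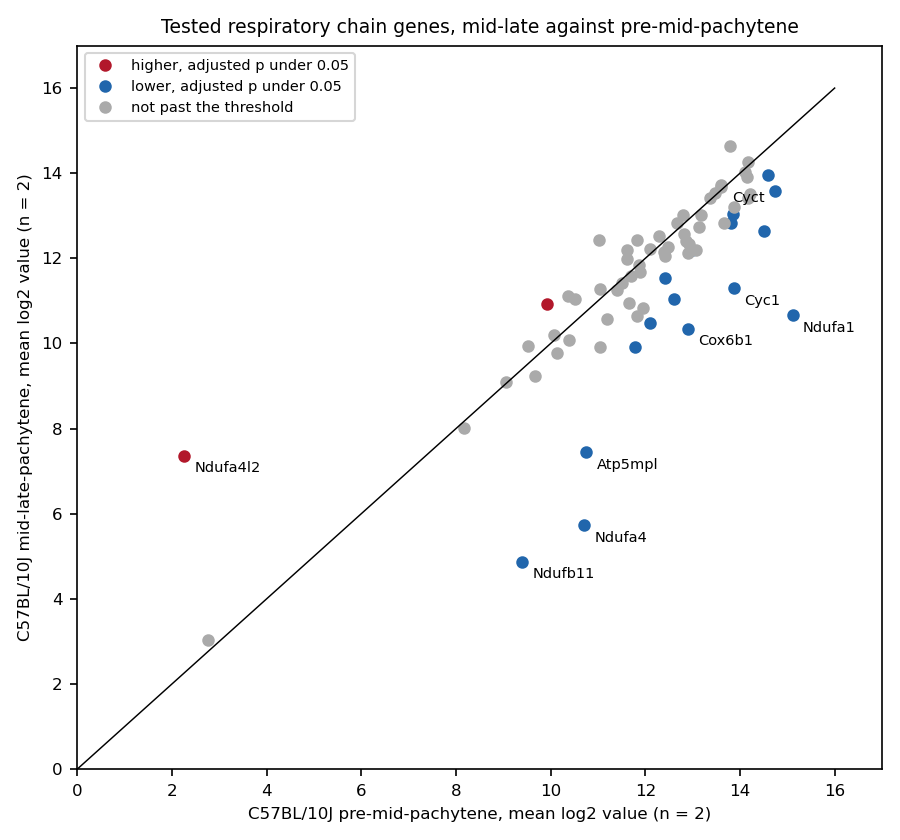
Mean log2 value of each tested member in C57BL/10J mid-late-pachytene cells (y axis) against pre-mid-pachytene cells (x axis), 2 arrays each. Points below the line are lower in mid-late cells. Ndufa4, Ndufb11, Ndufa1 and Atp5mpl lie 3.31 or more below it, Ndufa4l2 lies above it with a pre-mid value near background, and Cyct lies 0.11 above it.

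In sorted pre-mid-pachytene cells of the carriers, 0 members passed the test in any comparison. Between t12 and Ttf cells 0 of 69 rose (against 0.0621% of all genes) and 0 fell (against 0.693%), and 0 had an unadjusted p under 0.05. Between Ttf and C57BL/10J cells 0 rose (against 0.59%) and 0 fell (against 1.47%), with 3 at an unadjusted p under 0.05. Between t12 and C57BL/10J cells 0 rose (against 3.24%) and 0 fell (against 5.83%), with 4. Of all 9666 genes tested, 987, 1731 and 2133 had an unadjusted p under 0.05 in these comparisons, in the same order. The member medians were -0.22, 0.12 and -0.16, against 0.05, 0.01 and 0.06 for all genes.

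The 4 members with an unadjusted p under 0.05 in t12 against C57BL/10J cells were Cox6b2, Ndufv3, Cox5b and Ndufb7, all lower. Cox6b2 had 10.32, 9.26 and 10.12 in t12 and 10.52, 9.89 and 10.48 in Ttf cells, against 11.07 and 11.002 in C57BL/10J cells. Both carriers lay below the controls, and they overlapped each other. The change was -1.14 ± 0.35 in t12 and -0.74 ± 0.35 in Ttf cells (limma adjusted p = 0.0852 and 0.311). For Ttf cells the 3 were Sdha at -0.81 ± 0.26 and Sdhd at -1.23 ± 0.47, the flavoprotein and a membrane anchor of complex II, and Ndufb5 of complex I at 0.64 ± 0.24 (adjusted p = 0.156, 0.217 and 0.209). These 7 genes were singled out after their values were seen.

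Single arrays moved these results. Without t12 replicate 2 the member median of t12 minus Ttf was 0.09 and that of t12 minus C57BL/10J 0.17, both of opposite sign, and Ndufa6 (1.20, adjusted p = 0.00917) and Ndufb5 (0.66, adjusted p = 0.0485) were called higher in t12 than in C57BL/10J cells. Without Ttf replicate 2 and t12 replicate 3, Cox5b (-1.43, adjusted p = 0.0372) and Ndufv3 (-1.42, adjusted p = 0.0217) were called lower. The direction of the member median thus did not hold across fits for either t12 comparison, while that of Ttf minus C57BL/10J stayed between 0.0191 and 0.18. The Gapdh 3′ minus 5′ signal was 3.44 to 3.98 in t12, 3.26 to 3.91 in Ttf and 2.86 to 2.93 in C57BL/10J cells, and its part, like that of the spermatid and Leydig markers given above, was not tested.

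Cyct had 14.44, 13.71 and 14.21 in t12 and 14.21, 12.72 and 14.74 in Ttf pre-mid cells, against 13.55 and 13.66 in C57BL/10J cells. The t12 values lay above the controls and the Ttf values on both sides of them, with a change of 0.51 ± 0.52 in t12 cells (limma adjusted p = 0.674). Whether the t12 minus Ttf difference itself differed between sorted cells and testes was tested by an interaction term. It called 0 of 70 members, against 0.0659% higher and 0.668% lower among all genes tested. Only Cox8c among the members had an unadjusted p under 0.05 (1.498 ± 0.61, limma adjusted p = 0.545), against 812 of all 10623 genes tested. For Cyct this difference was 1.14 ± 0.53 (adjusted p = 0.655).

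Carrier spermatocytes and carrier testes differed widely. In the sorted cells 29 of 70 members were higher (41.4%, against 46.2% of all genes tested) and 17 lower (24.3%, against 34.7%), with a member median of 0.13 against 0.25. Age, cell makeup, RNA kit and the 3′ to 5′ signal of the control probes all differ between these sample kinds and cannot be told apart. Quantile normalization gave 15 higher and 38 lower members and a member median of -0.54, so only large changes with the same call under it are named.

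Cox8a, the widely expressed form of subunit 8, had 1.06, 1.05 and 1.64 in t12 and 1.34, 2.93 and 1.06 in Ttf pre-mid cells and 1.04 to 1.07 in the 4 arrays of C57BL/10J cells. It had 10.06, 9.90 and 10.18 in t12 and 9.83, 9.98 and 10.08 in Ttf testes and 10.18 and 10.25 in C57BL/6J testes. The sorted arrays were all below the filter and the testis arrays all far above it. Cox8a entered the fit of all 18 arrays only through the testes, so no size or p is given for its difference.

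Cox7a1 had 3.89, 2.93 and 5.87 in t12 and 3.0002, 5.46 and 2.66 in Ttf pre-mid cells, against 9.19 to 9.66 in carrier testes. The 2 sorted arrays above 5 are those that earlier results set apart. The other 4 sorted carrier arrays were below the filter, so no size or p is given for Cox7a1 either. Cox8a also had its highest sorted values in those 2 arrays.

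In the other direction, Cyct was 2.42 ± 0.27 higher in sorted carrier cells than in carrier testes, Ndufv1, the NADH-binding subunit of complex I, 2.03 ± 0.10, and Atp5a1, the ATP synthase alpha subunit, 1.69 ± 0.09 (limma adjusted p = 1.27e-06, 2.78e-10 and 6.94e-10). Cox8c had a change of 1.60 ± 0.30 and Cox6b2 of -1.06 ± 0.18 (adjusted p = 0.00024 and 8.44e-05), so the testis isoforms did not share a direction here. Ndufa7 had a change of -3.73 ± 0.25 and Ndufa4 of -2.21 ± 0.24. Ndufa4l2 was called higher, but its 1.55 to 2.27 in these arrays is near background on both sides.

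Some members gave no usable level. The probe set of Cycs, the body's cytochrome c, read 2.47 to 3.12 on all 18 arrays. The muscle forms Cox6a2 and Cox8b and the lung form Cox4i2 read 1.89 to 3.28. No comparison is drawn from them.

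Genes that serve the same mitochondria were counted from lists of assembly factors, the citric acid cycle with pyruvate entry, testis energy isoforms and mitochondrial biogenesis. In t12 relative to Ttf testes 2 of 36 assembly factors, 1 of 20 citric acid cycle genes and 3 of 9 testis energy isoforms fell, 0 of 11 biogenesis genes did, and 0 rose in each list, against 3.92% lower and 1.07% higher among all genes tested. The energy isoforms were Ldhc, the testis lactate dehydrogenase (-1.28 ± 0.24), Gk2, a testis glycerol kinase (-1.58 ± 0.33), and Eno4, a sperm enolase (-0.57 ± 0.07), with limma adjusted p = 0.0398, 0.0441 and 0.0209. The list medians were -0.02, 0.00, -0.52 and 0.02, against 0.02 for all genes.

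In mid-late relative to pre-mid cells 14 of 36 assembly factors fell and 5 rose, 9 of 20 citric acid cycle genes fell and 3 rose, 5 of 12 biogenesis genes fell and 2 rose, and 4 of 11 testis energy isoforms fell and 3 rose. These counts stand beside 30.3% lower and 26.2% higher among all genes tested, and nothing particular to the lists is read from them. Tfam, the mitochondrial transcription factor, had 5.31 and 4.75 in mid-late cells, against 7.95 and 7.73 in pre-mid cells, and fell by 2.81 ± 0.33 (limma adjusted p = 0.000112). For some other called genes at least 1 array of a group was below the filter at 4. Of these, 4 are named as examples, with values only. Bcs1l, which inserts the Rieske protein into complex III, had 4.43 and 3.28 in mid-late cells, against 9.18 and 9.31 in pre-mid cells. Ndufaf6, a complex I assembly factor, had 2.66 and 2.99, against 8.11 on each pre-mid array, and Idh3g, a subunit of isocitrate dehydrogenase, had 2.10 and 2.34, against 9.45 and 9.25. Ppargc1a, a coactivator of mitochondrial biogenesis, had 7.05 and 7.38 in mid-late cells, against 2.04 and 2.07 in pre-mid cells, and passed the filter only through the mid-late arrays.

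The genes outside the family whose 7 group means followed those of Cyct most closely were Icmt (Pearson r = 0.993), 4930579G24Rik (0.990), Slirp (0.987), Orc5 (0.983) and Traf2 (0.982). These values describe 7 group means of 2 sample kinds, which share the step between sorted cells and testes. Icmt, a protein methyltransferase, averaged 8.36 in t12, 8.89 in Ttf and 8.88 in C57BL/6J testes, and 10.85, 10.81 and 10.57 in t12, Ttf and C57BL/10J pre-mid cells.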

How the data were processed

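Per the submitters' processing notes, the authors made the deposited log2 values with GCRMA. Which arrays were normalized together and the genome build are not given in the sources used here. Per the labels' protocols, biotin labelling in 2 cycles started from 20 to 30 ng of RNA. The table has 1 probe set per gene; 15780 carry 1 symbol, 0 several and 759 none. Symbols were updated with a GRCm38.p6 gene table, which also gave chromosomes. Arrays give no read depth, and their number limits the precision.

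Values were used as deposited, for probe sets with 1 symbol. The sorted cells (10 arrays, 9666 genes), the testes (8 arrays, 9134 genes) and all 18 arrays (10623 genes) were fitted with limma 3.58.1 in R 4.3.3 (lmFit with 1 mean per group, eBayes), tested on simulated data first. Tests were two-sided, with Benjamini-Hochberg adjustment over all genes of a comparison and calls at an adjusted p under 0.05. Errors of changes are moderated standard errors (SE), and other errors are SD. Each comparison was repeated with the filter dropped or set at 6, with quantile-normalized or median-centred arrays, with the compared groups only, with a replicate block, and with arrays left out.

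Named members are every called member where 10 or fewer are called in a direction, otherwise the 8 largest changes without overlap, plus tissue isoforms and their partners, members on the X, 16 and 17, the extremes of each complex, and the 5 genes most like Cyct. Members, lists and this rule were chosen with earlier results of these data known.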

Additional observations from a re-analysis of the deposited data

Results flagged for a closer look

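Some members moved one way against C57BL/10J in every sorted carrier array and the other way against C57BL/6J in every carrier testis. In Ttf carriers, with the change in sorted cells given before that in testes, these were Ndufa12 (0.60 and -0.13), Ndufa2 (0.40 and -0.10), Ndufa6 (1.03 and -0.0677), Ndufb5 (0.64 and -0.10), Ndufb9 (0.55 and -0.13), Ndufc2 (0.64 and -0.0518), Ndufs5 (0.52 and -0.10), Ndufs6 (0.19 and -0.15), Ndufv2 (0.27 and -0.0720) and Atp5d (0.35 and -0.11). In t12 carriers they were Cyct (0.51 and -0.91), Ndufb5 (0.46 and -0.21) and Cox5a (0.43 and -0.0248). Such separation is common in groups of this size. Of all genes tested, 20.4% in Ttf and 26.0% in t12 sorted cells lay wholly above the controls. In the testes 21.6% (Ttf) and 26.6% (t12) lay wholly below them. Of the 69 members tested, 14 (Ttf) and 3 (t12) lay wholly above the controls in sorted cells. In testes most members, 40 (Ttf) and 51 (t12) of 69, lay wholly below them. The share of all genes that did both was not counted.

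The planned tests did not compare these changes. An interaction term over all 18 arrays, added after the opposite changes had been seen, called 0 of 70 members in either carrier. Over all 10623 genes tested it called 376 in Ttf and 866 in t12 carriers. Among the members, 2 (Ttf) and 5 (t12) had an unadjusted p under 0.05. The lowest limma adjusted p was that of Ndufb5, 0.101 in each carrier (differences 0.74 ± 0.23 in Ttf and 0.67 ± 0.23 in t12), and Cyct in t12 carriers had 1.42 ± 0.59 (adjusted p = 0.187). The controls of the sorted cells and of the testes are of different strains, so sample kind and control strain cannot be told apart. Groups hold 2 or 3 arrays, too few to test a single array for being an outlier, which needs 4.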

How the results depend on the processing

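The numbers of members called kept within 1.5 times of their value under most settings. Exceptions were, for mid-late minus pre-mid cells, 36 with the compared groups only; for t12 minus Ttf testes (6), 3 without the filter and 0 with the compared groups only, where 17 had an unadjusted p under 0.05; for Ttf minus C57BL/6J testes (6), 2 with the compared groups only and 13 with the replicate block; for t12 minus C57BL/6J testes (28), 17 with the compared groups only; and for t12 minus C57BL/10J cells (0), 2 without Ttf replicate 2 and t12 replicate 3. Leaving out 1 array at a time gave 0 to 2 members for t12 minus C57BL/10J cells, 10 to 12 for mid-late minus pre-mid cells, 0 to 7 for t12 minus Ttf testes, 2 to 4 for Ttf minus C57BL/6J testes and 4 to 23 for t12 minus C57BL/6J testes. The member median of Ttf minus C57BL/10J cells was 0.0454 with the replicate block and 0.0191 without the arrays set apart, and 0.0191 to 0.18 leaving out 1 array; that of mid-late minus pre-mid cells was -0.36 after quantile normalization, 0.0283 after centring and -0.39 to -0.17 leaving out 1 array. For carrier sorted cells minus testes, quantile normalization gave a median of -0.54 and turned Atp5j (-0.60), Cox4i1 (-0.49), Cox5a (-0.28), Atp5g3 (-0.0833), Ndufa12 (-0.0777), Ndufb7 (-0.13), Sdha (-0.0232), Ndufa13 (-0.29) and Ndufc2 (-0.16) below 0, among others: Ndufa10 (-0.34), Ndufc1 (-0.67), Cox6c (-0.71), Atp5b (-0.67) and Atp5j2 (-0.68), above 0 and not called as deposited, were called lower under it. The cause was not tested, other than the number of arrays or genes in a fit. Over the genes named, 2683 of the alternative values kept direction and call, 220 lost the call, 41 gained it, 127 uncalled values changed sign and 9, the first named above, reversed with a call in at least 1 of the 2 fits. Leaving out 1 array of a group of 2 (C57BL/10J of either stage, or C57BL/6J) leaves 1, which the fit assumes to vary like the other groups. Deviations from the group mean of same-numbered arrays correlated at 0.23, 0.02 and -0.34 for t12 and Ttf cells. For their testes the correlations were 0.46, 0.02 and 0.66. In each testis group the values of Cyct, Cox6b2, Cox7b2 and Cox8c fell with rising replicate number. Whether replicate numbers pair the testes is thus not settled, and the main fits used no pairing. The replicate block changed no other count by over 1.5 times. The median of all probe sets was 4.52 to 5.67 per array. The level of background was not estimated, so values near or below 4 are to be read with caution.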
